A study of Oryza sativa with 2 samples.

Results

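Glutathione S-transferases are the enzymes that join the tripeptide glutathione to reactive or toxic compounds. The study named 9 accessions of this family among transcripts raised in rice collars that carry an antisense OsLIC transgene, and presented them as genes linked to brassinosteroids, the steroid hormones that open the leaf angle of rice. A probe set, the group of short probes that reads 1 transcript on the array, was found for 7 of the 9 accessions. These 7 probe sets, out of 57194 on the array that are not controls, are described here. They were chosen by the study for a difference between arrays of antisense OsLIC and wild type collars. The study cites its arrays under another series number, and the sample descriptions match the 2 arrays used here, which are therefore treated as the ones behind the choice. The ratios of the 7 are a description and carry no test. For the other 2 accessions no probe set was found, and they were not analysed here.

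RNA came from the developing collar, the joint between leaf sheath and leaf blade, of Oryza sativa plants at the heading stage. The plants had germinated on MS medium and had then grown in 1 field under the same conditions. The wild type array and the antisense OsLIC array each took RNA pooled from 30 collars, 1 collar per plant. The antisense collars were those of line 2, 1 transgenic line with a single T-DNA insertion in which the maize ubiquitin1 promoter drives the whole OsLIC cDNA in antisense orientation, and the wild type collars carried no transgene. The promoter is active in most tissues, and no collars of the other transgenic lines were on an array. Each condition thus had 1 array, no spread between samples could be measured, and no difference below has a replicate check. In pooled tissue a lower signal from fewer cells of a type and one from less RNA per cell cannot be told apart.

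Plant glutathione S-transferases fall into classes that differ in sequence. The tau and phi classes are large in plants and are known for detoxifying herbicides and for their induction by stress, pathogens and hormones. The zeta class works in the breakdown of tyrosine. The conjugates made by these enzymes are moved into the vacuole by ABC transporters of subfamily C, and glutathione itself is kept in its reduced form by glutathione reductase.

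OsLIC, the gene that the construct targets (AK107008), had a signal of 219.8 on the wild type array and of 2069 on the antisense OsLIC array. The targeted gene therefore read 9.41-fold higher under the antisense label, and whether its probes also read the antisense transcript was not tested. For this reason every direction below is that between the 2 arrays as they are labelled. Probe sets were used if at least 1 of their 2 signals was 100 or more, and over these 26697 probe sets the median log2 ratio of antisense OsLIC over wild type was -0.01. The poly-A control transcripts, added to the RNA before labelling, had a median ratio of 0.656 over 24 probe sets, and the hybridisation controls, added after labelling, one of 1.11 over 18. The collar marker LG1, the gene of the liguleless factor that sets the boundary of blade and sheath, had signals of 493.5 and 641.3.

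The 7 probe sets all gave a higher signal on the antisense OsLIC array, and 6 of them were at least 2-fold higher. Over all probe sets past the signal minimum, the share at least 2-fold higher was 5.28%, the share at least 2-fold lower was 4.64%, and 9.91% were past 2-fold in either direction. The log2 ratios ran from 0.78 to 2.83 with a median of 1.70. At least 3-fold higher were 4 of the 7, and 2.49% of all probe sets past the minimum. The study had chosen these accessions for being higher, so nothing about the family follows from that count.

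The annotation of the array gives 1 gene for each of the 7 probe sets, and 6 genes in all. AF309378 and AF309379 are both assigned to LOC4349190. Among the RefSeq symbols and synonyms of these genes, only that of AF309376 has a family name, GSTU6, where the letter U stands for the tau class. The other 5 genes carry locus numbers without a class, so that a comparison by class could be made for GSTU6 alone. None of the 7 probe sets has the suffix of the less specific sets, _x_at or _s_at, which can also bind related transcripts.

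GSTU6 (AF309376, LOC4349207, probe set Os.4762.1.S1_at) had a signal of 1229 on the wild type array and of 7569 on the antisense OsLIC array. That was a 6.16-fold difference (log2 ratio 2.62) measured between signals that were both far above the minimum. Among the 26697 probe sets, 171 had a higher ratio. A further probe set of this gene, for AK111429, read 50.2 and 57.3 and did not reach the minimum, so the difference for GSTU6 rests on 1 probe set.

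AK062937 (LOC4325712, Os.36663.1.S1_at) had the highest ratio of the 7, with signals of 29.2 on the wild type array and 207.5 on the antisense OsLIC array. The fold difference was 7.10 (log2 ratio 2.83), and 114 probe sets had a higher ratio. The wild type signal was close to 20, the value to which lower signals were raised before a ratio was taken. With 50 added to both signals in place of that floor, the log2 ratio of AK062937 was 1.70, while that of GSTU6 was 2.57, and the order of the pair was turned. GSTU6 and AK062937 are the glutathione S-transferases for which the study lists primers for reverse transcription PCR. The primers are shown as the study lists them, and whether they also match related genes was not tested. They are written from the 5′ to the 3′ end, with no letters in capitals since no part of them is singled out, and were copied from the supplementary primer list.
GSTU6 sense primer: gtgatgccctctgaccccta
GSTU6 antisense primer: gcagcagcatttctccttgtta
AK062937 sense primer: cagtgcttcatcgtcccca
AK062937 antisense primer: tcaccttcttcacgctcgg
The GSTU6 primers are 20 and 22 bases long, and both AK062937 primers have 19 bases.

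**Figure D1:**
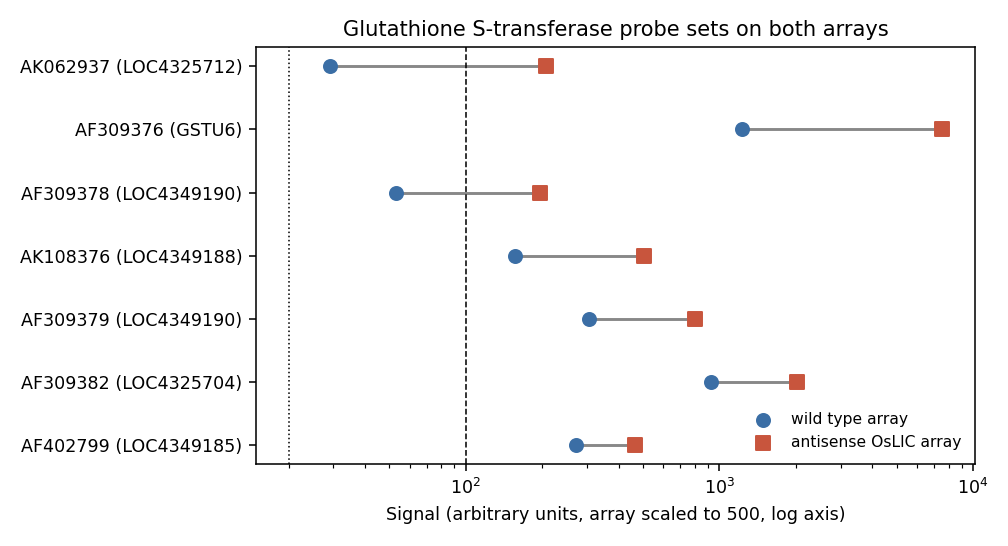
Signal of each of the 7 glutathione S-transferase probe sets on the wild type array (circles) and on the antisense OsLIC array (squares), with the probe sets ordered by their ratio and the signal on a log axis. The dotted line marks the floor of 20 and the dashed line the minimum of 100, and the wild type signals of AK062937 (29.2) and AF309378 (53.2) lie under the minimum.

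The pair of probe sets assigned to LOC4349190 gave 2 readings of what the annotation takes for 1 gene. AF309378 (Os.2612.1.S1_at) had signals of 53.2 on the wild type array and 195.8 on the antisense OsLIC array, 3.68-fold higher. AF309379 (Os.7794.1.S1_at) had signals of 305.2 and 798.2, 2.62-fold higher. Both readings had the same direction, which carries no weight since the study had chosen both accessions for being higher. Their log2 ratios of 1.88 and 1.39 differed by 0.49. With 50 added to both signals the log2 ratios were 1.25 and 1.26. Adding 50 lowers the ratio of a dim probe set more than that of a brighter one, so this does not show that the readings match. The difference remained under quantile normalization (1.84 and 1.39) and under a loess (1.83 and 1.42). Whether they come from 1 transcript or from 2 related genes cannot be told from the annotation.

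AK108376 (LOC4349188, Os.5441.1.S1_at) had signals of 156.1 and 506.1, which made it 3.24-fold higher on the antisense OsLIC array (log2 ratio 1.70). A further probe set of LOC4349188, for CR288637, read 12.1 and 29.2 and was too dim to give a ratio. AF309382 (LOC4325704, Os.7911.1.S1_at) had signals of 922.4 and 2018. At 2.19-fold (log2 ratio 1.13) it was the accession just inside the 2-fold limit that the study set.

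AF402799 (LOC4349185, Os.13015.1.S1_at) did not reach that limit. Its signals of 271.4 and 465.5 gave a 1.72-fold difference (log2 ratio 0.78), and 2118 probe sets past the minimum had a higher ratio. AF402799 thus had the smallest ratio of the 7, although it stands in the same list.

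The brightness of a probe set bears on how often 2-fold differences occurred. Of probe sets whose brighter signal lay from 100 to under 300, 10.8% were at least 2-fold higher on the antisense OsLIC array, which is the band of AK062937 and AF309378. The share was 3.34% from 300 to under 1000, the band of AK108376, AF309379 and AF402799. It was 2.37% from 1000 to under 3000, where AF309382 lies, and 2.48% from 3000 upwards, where GSTU6 lies. Signals of different probe sets depend on their probes as well as on the transcript, so the 7 signals give no order of abundance among these genes. Of the 7, 5 reached a signal of 100 on the wild type array too.

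**Figure D2:**
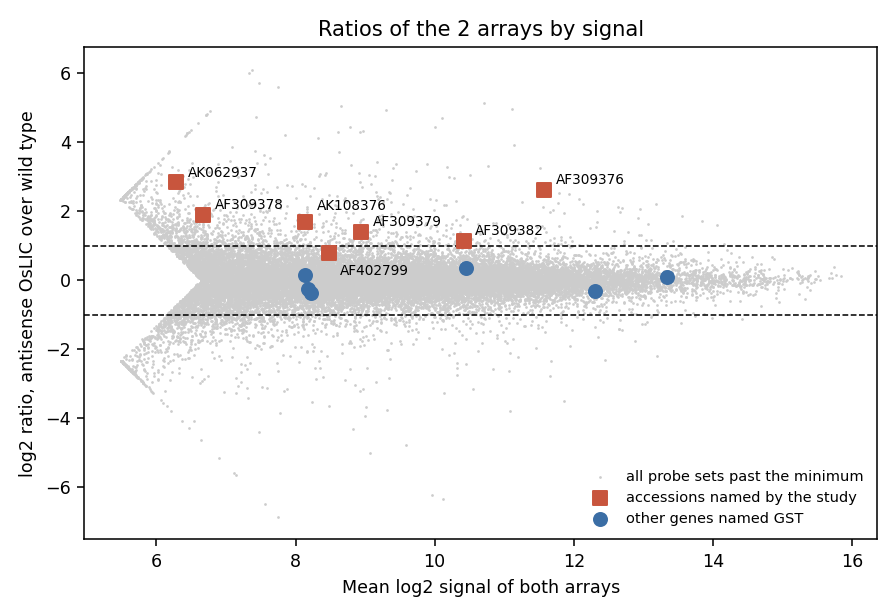
Log2 ratio of antisense OsLIC over wild type against the mean log2 signal of both arrays, for 26697 probe sets (grey), the 7 probe sets named by the study (squares) and the other probe sets of genes named GST that passed the minimum (circles). The dashed lines mark 2-fold; 6 squares lie above the upper line, and all 6 circles lie between the lines.

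Apart from GSTU6, 5 genes have a RefSeq symbol or synonym that begins with GST, and their probe sets showed no 2-fold difference. GSTU6 and these genes have 8 probe sets together, of which that of AF309376 is the 1 named by the study and that of AK111429 is the dim second set of GSTU6. The other 6 reached the minimum, with 3 log2 ratios above 0 and 3 below. They ran from -0.38 to 0.36 with a median of -0.09, where the median of all probe sets was -0.01. Of all probe sets past the minimum, 9.91% were past 2-fold in either direction. That none of these 6 was is near that share, and nothing about these genes follows from it. With 1 array per condition the difference between the named accessions and these genes has no test, and the former had been picked for being higher.

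GSTU1 (also GST1), of the tau class like GSTU6, had signals of 267.6 on the wild type array and 294.8 on the antisense OsLIC array. Its log2 ratio was 0.14 against 2.62 for GSTU6, so the named tau genes read differently on this pair of arrays. The probe set of GSTU1 has the suffix _s_at, and related transcripts may add to its signal.

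The phi class is represented by GSTF1 and GSTF2, also called GST-I and GST-II. GSTF2 had signals of 10063 and 10655 (log2 ratio 0.08), nearly equal on the 2 arrays. GSTF1 had signals of 340.7 and 262.5, lower on the antisense OsLIC array by 1.30-fold (log2 ratio -0.38). The zeta gene GSTZ5 read 5676 and 4527 (log2 ratio -0.33). For the other zeta gene, GSTZ3 or gst2, the probe set of AK073086 read 319.3 and 265.2, and that of AJ486976, which has the suffix _x_at, read 1234 and 1579. Its probe sets had log2 ratios of -0.27 and 0.36, opposite in sign and both within 2-fold.

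Genes of glutathione S-transferases often lie side by side, and the place of the 6 genes in the genome was not used to choose them. In the RefSeq assembly ASM3414082v1, 4 of the 6 genes lie on chromosome 10 and the other 2 on chromosome 1. Only the order of the genes by their start positions is used here, and no distances are given. From LOC4349185 to GSTU6 on chromosome 10 there are 18 protein-coding genes in a row, 4 of them genes of the named accessions. LOC4349188 and LOC4349190 are next to each other, 1 gene, LOC4349186, separates them from LOC4349185, and GSTU6 closes the row. This stretch was picked for description after the values had been seen.

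Of the other 14 genes in the row, 10 have a probe set and 7 of these reached the minimum. They were mixed in direction, with 2 at least 2-fold higher, 1 past 2-fold lower and a median log2 ratio of 0.18. By gene, 3.72% of all genes past the minimum were at least 2-fold higher and 2.84% at least 2-fold lower. The annotation gives these neighbours no names, and nothing is said here of what they encode.

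LOC4349193 (AF402796) read 9.26 on the wild type array and 170.6 on the antisense OsLIC array, at least 8.53-fold higher against the floor of 20. LOC4349186 (AK110508) read 62.8 and 137.7, 2.19-fold higher, and is the gene between LOC4349185 and LOC4349188. LOC4349196 (AF402795), directly beside LOC4349193, read 102.9 and 31.6, 3.25-fold lower. The pair of genes LOC4349193 and LOC4349196 therefore differed in opposite directions. The wild type signals of LOC4349193 and LOC4349186 and the antisense OsLIC signal of LOC4349196 were all under 100, and at a minimum of 100 on both arrays none of the 3 was counted.

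Of these 7 neighbours past the minimum, the other 4 stayed within 2-fold. LOC4349197 had signals of 8294 and 6856 (log2 ratio -0.27), and LOC4349202 had 3854 and 4036 (log2 ratio 0.07). LOC4349203 read 753.5 and 854.9 and LOC4349192 read 258.0 and 298.3, with log2 ratios of 0.18 and 0.21. GSTU6 was the 1 gene of the row past 2-fold whose signal was above 1000 on both arrays. LOC4349191, which follows LOC4349190, was under 20 on both arrays and gives no ratio. Before LOC4349185 lies LOC4349181, whose probe sets stayed under 100 on both arrays.

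**Figure D3:**
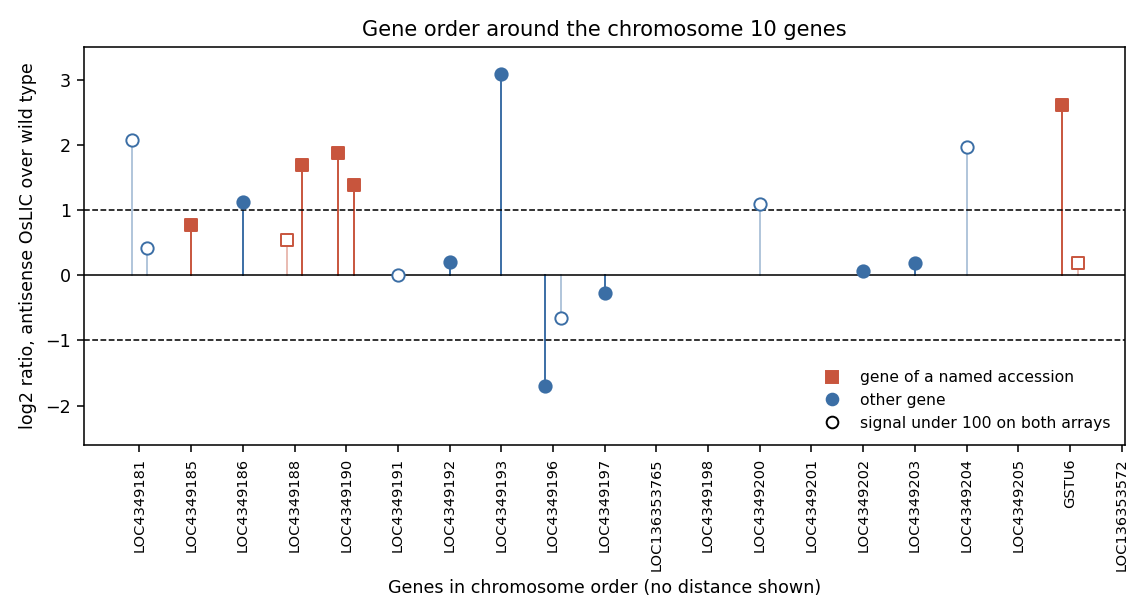
Log2 ratio of antisense OsLIC over wild type for the probe sets of the genes from LOC4349181 to the pseudogene after GSTU6, in their order on chromosome 10, with squares for genes of the named accessions, circles for other genes, open symbols for signals under 100 on both arrays and no symbol where a gene has no probe set. The filled squares of LOC4349188, LOC4349190 and GSTU6 lie above the upper dashed line of 2-fold, LOC4349193 reads 3.09 against the floor, and LOC4349196 reads -1.70.

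On chromosome 1 the genes of AF309382 and AK062937 are separated by 5 protein-coding genes, of which GSTF1 alone has a probe set. GSTF1, which has the pseudogene LOC4325711 between it and LOC4325712, had the log2 ratio of -0.38 given above. GSTF1 was thus lower on the antisense OsLIC array, while LOC4325704 and LOC4325712, which bound this stretch, were higher (log2 ratios 1.13 and 2.83). LOC4325704 is not next to GSTF1, and the genes between them have no probe set.

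The other genes that make, recycle and use glutathione were compared through 29 genes that their names place there and that have a probe set. Of the 28 past the minimum, 1 was at least 2-fold higher and 1 at least 2-fold lower on the antisense OsLIC array, with a median log2 ratio of 0.07. These counts stand beside shares over all genes of 3.72% higher and 2.84% lower. No gene named as a glutathione peroxidase, a dehydroascorbate reductase or a gamma-glutamyl transferase was found by symbol, so these steps are not covered.

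The gene GSH1-1 of glutamate-cysteine ligase, the first enzyme of glutathione synthesis, read 2976 and 3928 by its brightest probe set (log2 ratio 0.40). Log2 ratios of 0.50 and -0.07 came from the other probe sets of GSH1-1. The glutathione reductase gene RGRC2 had signals of 5305 and 7201 (log2 ratio 0.44). Both stayed within 2-fold. The glyoxalase gene GLYI-11, whose enzyme removes methylglyoxal with the help of glutathione, had signals of 26387 and 27807 (log2 ratio 0.08). ABCC13, the single transporter of subfamily C found, known in rice for a role in phytic acid storage, read 772.7 and 628.4 (log2 ratio -0.30).

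Ascorbate peroxidases remove hydrogen peroxide in the cycle that draws on glutathione. APX2 was 2.15-fold lower on the antisense OsLIC array, with signals of 23752 and 11051. Further probe sets of APX2, for D25238 (12908 and 5387) and AK068430 (352.2 and 99.6), were lower as well, with log2 ratios of -1.26 and -1.82. That for AK102751 did not reach the minimum (25.5 and 82.0). APX1 was nearly level at 16973 and 15858 (log2 ratio -0.10), and APX7 had the highest ratio of the 7 ascorbate peroxidases (log2 ratio 0.83, from 2080 to 3698).

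Glutaredoxins use glutathione to reduce disulfide bonds. Of 17 glutaredoxin genes past the minimum, GRXC15 was 2.14-fold higher, with signals of 1063 and 2270, and none was at least 2-fold lower. GRXS5 came next with a log2 ratio of 0.70 (3451 and 5616), GRXS2 was lowest with -0.57 (2782 and 1879), and the median of the 17 was 0.06.

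**Figure D4:**
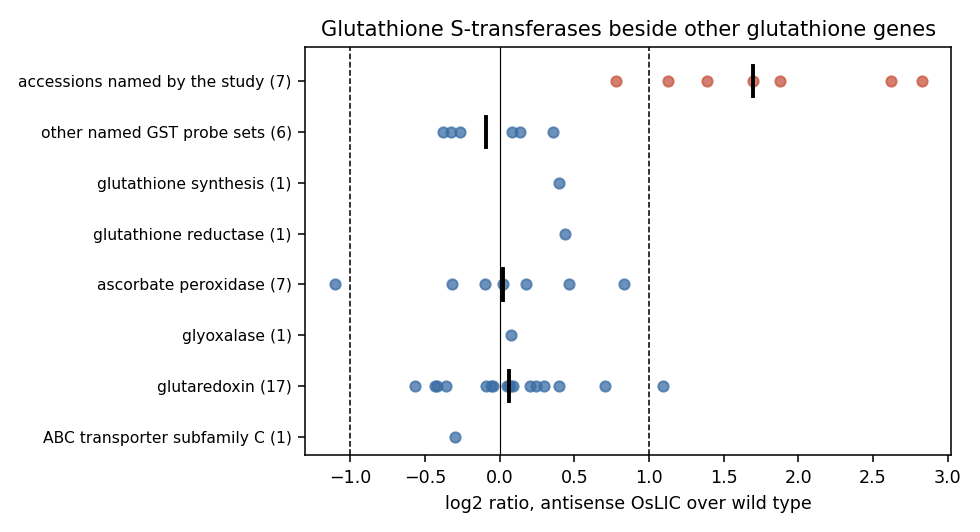
Log2 ratio of antisense OsLIC over wild type for the 7 named accessions, the 6 other probe sets of genes named GST past the minimum, and the glutathione genes past the minimum by their step, with 1 point per probe set in the first 2 rows and per gene in the others, and a bar at the median of rows of more than 4 points. The named accessions lie from 0.78 to 2.83, and of the other points GRXC15 (1.09) and APX2 (-1.10) are past the dashed lines of 2-fold.

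Several genes of the response to pathogens and wounding were higher on the same array. Of 13 such genes with a probe set, most of them chitinase genes, 11 reached the minimum, with a median log2 ratio of 1.22. Among the 11, 7 exceeded 2-fold in the direction of the antisense OsLIC array and 0 in the other, where 3.72% and 2.84% of all genes did. The chitinase gene Cht3 read 217.9 and 2242, 10.3-fold higher, and the defence gene PBZ1 had signals of 28860 and 27485 (log2 ratio -0.07). The summed signal of the 13 genes was 39733 on the wild type array and 53794 on the antisense OsLIC array.

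Markers of other tissues differed between the arrays too. Of 6 green leaf genes the summed signal was 63180 and 50932, and RCABP89, of the chlorophyll-binding proteins, was 5.04-fold lower (7283 and 1445). The other 4 past the minimum were within 2-fold and not of 1 direction, from CAB2R, just short of 2-fold lower (25685 and 12844), to OsrbcS, of the small subunit of Rubisco, which was higher (14898 and 25699, log2 ratio 0.79). The 11 floral organ genes had summed signals of 1528 and 1512, of which OsMADS16 gave 1001 and 1179. OsMADS2 was 5.09-fold lower (155.1 and 30.5), 8 of the 11 were under 100 on both arrays, and 2 on the wild type and 4 on the antisense OsLIC array were under 20. The meristem gene OSH1 was near the floor at 22.9 and 22.3. The part of tissue make-up or of a defence response in the signals of the 7 glutathione S-transferase probe sets was not tested.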

How the data were processed

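The authors hybridised 1 GeneChip Rice Genome Array per condition and computed 1 signal intensity per probe set with GCOS (version not given in the sources used here), with an overall intensity of 500 set for each array. The deposited values are linear, and detection calls were not used here. Of 57381 probe sets, 187 controls and reporters were left out. Signals under 20 were set to 20, the log2 ratio of antisense OsLIC over wild type was taken without further normalization, and probe sets of 100 or more on the brighter array were counted from 2-fold. A ratio against a signal under 20 is a lower bound. No significance test was possible with 2 arrays, and their number limits the precision.

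By the array annotation 22436 probe sets have 1 gene, 95 have several and 34663 have none. Names come from it and from RefSeq symbols and synonyms, matched by gene ID. Where a gene had several probe sets in a list, the one with the highest mean log2 signal was used. Named are all 7 members, every probe set of a GST name, neighbours of a member, and pathway genes past 2-fold or of highest signal; GSH1-1, RGRC2, ABCC13, APX7, GRXS5, GRXS2, the marker genes and the rest of the chromosome 10 row were added after their values were seen. Members and lists were chosen with earlier results of these data known, and the study had chosen the members by the same contrast. A list by gene description, promoter motifs and protein sequences had been planned, but the tables used here hold none of these. In 57194 simulated probe sets, all of 200 changed 4-fold were recovered. The changed sets were drawn from those with a mean signal of 200 or more, and little noise was added. Full recovery was therefore set by the design. It checks the calculation only and gives no measure of how reliable the ratios of the real arrays are. Python 3.11.15, numpy 2.4.6, pandas 2.3.3 and statsmodels 0.14.6 were used.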

Additional observations from a re-analysis of the deposited data

How the results depend on the processing

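No paired analysis was possible because each group has 1 array, and for the same reason no array could be left out. All 7 log2 ratios stayed above 0 under median centring, quantile normalization, a loess of span 0.4, a pseudocount of 50 and a floor of 50. The pseudocount and the floor could not have turned a sign, since every antisense OsLIC signal of the 7 was above 50. The members had also been chosen for being higher, so the kept sign is a description only. Of the 35 values, 32 moved by less than 0.5. The others were those of the dim probe sets, AK062937 with 1.70 under the pseudocount and 2.05 under the floor of 50, and AF309378 with 1.25 under the pseudocount. Of the 7 members, 4 to 6 were at least 2-fold higher over the alternatives, 3-fold in place of 2-fold included, and none of the other probe sets named GST was past the threshold in any. The glutathione genes past the threshold were 2, and 0 at 3-fold. The neighbours of the chromosome 10 row at least 2-fold higher, a count added after the data were seen, were 2, but 1 with the pseudocount or at 3-fold, 4 with no signal minimum, and 0 at a minimum of 200, of 500 or of 100 on both arrays. The share of all probe sets at least 2-fold higher was 5.28%, against 3.23% with the pseudocount, 2.49% at 3-fold, 8.50% with no minimum, 3.27% at a minimum of 200, 2.54% at 500 and 2.24% at 100 on both arrays. The list by gene description could not be run. Dim signals limit AK062937 and AF309378 most.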

Other observations

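Several of the named accessions come from 2 runs of consecutive accession numbers, AF309376 onwards and AF402792 onwards. The array holds 20 probe sets with an accession in these runs, of which 5 are among the named ones. The tables used here do not annotate the function of the other 15, and they were picked after the values had been seen. Of the 13 that reached the minimum, AF402796 was at least 2-fold higher and AF402795 at least 2-fold lower on the antisense OsLIC array, both in the chromosome 10 row described above. The shares over all probe sets were 5.28% higher and 4.64% lower. The other 11 had log2 ratios from -0.24 to 0.78, and the median of the 13 was 0.21.

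AF402797 (LOC4349210), also on chromosome 10, was the highest of these 11, with signals of 4519 on the wild type array and 7763 on the antisense OsLIC array (1.72-fold). AF402804, on chromosome 9, was the lowest, with signals of 11627 and 9875. AF309381 and AF402792 belong to LOC4351775 and LOC4351776 on chromosome 12, and read 4387 and 5101, and 970.8 and 1165.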
